A study of Mus musculus with 34 samples.

Results

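Potassium channel genes were taken as all genes whose symbol starts with Kcn and that had a probe well above background, in the heart channel, on a share of 0.5 or more of the arrays in 1 or more of the 6 groups. The array carried 104 probes for 78 such genes. Of these, 44 genes passed, and the other 34 did not reach that signal in any group. The classical heart genes Kcna2, Kcne2, Kcnk1, Kcnk2, Kcnn3 and Kcnma1 were among those whose probe did not pass, and Kcng2 and Kcnt2 were not analysed here.

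The hearts came from female C57BL/6 mice, bought at 5 to 6 weeks of age, that were instilled with 40 µl of fluid followed by 150 µl of air. Exposed mice were given Printex 90, carbon black nanoparticles, at 162 µg in saline (0.9% NaCl) with 10% cell-free lavage fluid of the same strain, and control mice received the vehicle. Hearts were taken after 1 day (6 carbon black, 6 control arrays), 3 days (5 carbon black, 6 control) and 28 days (5 carbon black, 6 control), with RNA of an individual mouse on each of the 34 arrays. Heart RNA carried the dye Cy5 and a commercial universal mouse reference RNA carried Cy3, so a log2 ratio above 0 means a brighter heart signal than reference signal for that probe.

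Potassium channels let potassium ions leave heart muscle cells and so repolarise them after each beat. Transient outward channels start this in the mouse, delayed rectifiers carry it on, and inward rectifiers and two-pore channels hold the resting potential. Accessory subunits change how channels open or reach the membrane, and some channels belong to atrial muscle, vessels, nerves or immune cells more than to ventricular muscle. In whole hearts, fewer cells of a type and less RNA per cell cannot be told apart.

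The share of spots with a heart signal well above background ran from 42.8% to 66.6% over the arrays. All 9 heart muscle markers (among them Myh6, Tnnt2 and Tnni3) were measured. On 5 arrays, called atrial-low here, the atrial markers stood apart, with atrial marker scores (the mean deviation of 6 atrial markers from their median over all arrays, log2) from -3.99 to -1.97 against -0.74 to 0.80 on the other 29. In the carbon black arm they were replicate 6 of day 1 and replicate 2 of day 3, and in the control arm replicate 2 of day 1, replicate 4 of day 3 and replicate 2 of day 28. Carbon black day 1 replicate 6 also correlated least with its own group (median r = 0.768 over genes) and had the lowest endothelial score (-2.42). Its smooth muscle (-1.88), fibroblast (-2.05), adipocyte (-3.82) and macrophage (-1.61) scores were likewise the lowest of all arrays. The low atrial score of that array was thus not particular to the atrial markers.

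The promoters of 3 members whose values the results turn on are printed first. Kcnd2 encodes Kv4.2, the pore of the fast transient outward current, and had the largest change with exposure among the members. Kcnj3 encodes the GIRK1 pore of the acetylcholine-gated current of atrial muscle, and was lowest on exactly the 5 atrial-low arrays. Kcnip2 encodes KChIP2, the partner that Kv4 channels need for a full current, and was high on 4 of those 5 arrays. The sequences are the 250 bases before the annotated start in RefSeq (build GRCm38.p6), read 5′ to 3′ on the gene's strand; capitals mark matches, on either strand, to the T-box core AGGTGT or to the GC box GGGCGG. Windows were found for 31 of the 44 members, and Kcnk6 was not among them.
Kcnd2, chr6:21215096-21215345, plus strand: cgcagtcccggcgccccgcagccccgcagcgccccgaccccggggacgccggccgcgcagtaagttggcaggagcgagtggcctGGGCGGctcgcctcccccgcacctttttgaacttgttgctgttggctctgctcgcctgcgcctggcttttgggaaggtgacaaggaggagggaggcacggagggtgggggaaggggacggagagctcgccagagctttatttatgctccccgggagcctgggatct
Kcnj3, chr2:55435720-55435969, plus strand: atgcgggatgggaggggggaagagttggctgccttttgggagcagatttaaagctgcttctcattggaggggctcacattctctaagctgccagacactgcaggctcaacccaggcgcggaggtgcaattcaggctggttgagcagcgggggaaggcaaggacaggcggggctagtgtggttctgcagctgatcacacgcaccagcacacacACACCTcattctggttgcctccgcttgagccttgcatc
Kcnip2, chr19:45816064-45816313, minus strand: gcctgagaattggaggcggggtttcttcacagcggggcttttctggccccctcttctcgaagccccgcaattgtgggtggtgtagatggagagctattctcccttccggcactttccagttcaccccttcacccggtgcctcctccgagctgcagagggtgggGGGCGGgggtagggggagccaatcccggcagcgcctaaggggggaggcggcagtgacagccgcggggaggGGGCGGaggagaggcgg

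The Kcnd2 window held 1 GC box and no T-box core, the Kcnj3 window 1 T-box core and no GC box, and the Kcnip2 window 2 GC boxes and no T-box core. Over all 32851 promoter windows of this length, 32.7% held GGGCGG and 11.8% held AGGTGT. Among the 43 windows of members, 22 held GGGCGG (51.2%) and 6 held AGGTGT (14%). The GATA motif AGATAA was in 1 member window (2.33%, against 9.99% of all windows), the E-box CACGTG in 5 (11.6%, against 6.02%), and the MEF2 consensus in none (0%, against 3.2%). Both strands were searched and none of these motifs contains another.

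Before exposure was considered, the members were set against the reference RNA, in which each ratio speaks of its own probe and ratios of different genes are not levels to be ranked. Of the 44 members, 36 had a mean ratio above 0 over the 34 arrays (81.8%), against 55.3% of all 19798 genes tested. The median ratio was 0.58 for the members and 0.06 for all genes, and 15 members (34.1%) lay above 1 against 14% of all genes. Their median SD over the arrays was 0.389, against 0.262 for all genes. For some members the reference signal was near background. It was well above background on 0 of 34 arrays for Kcnn2, Kcnv2, Kcnj5 and Kcne1l. The number was 1 for Kcnj3, 2 for Kcna5 and 3 for Kcnd2, but 34 for others such as Kcnq1, Kcnk3 and Kcnk6. Where the reference was near background, the size of a ratio rests on that weak signal.

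**Figure D1:**
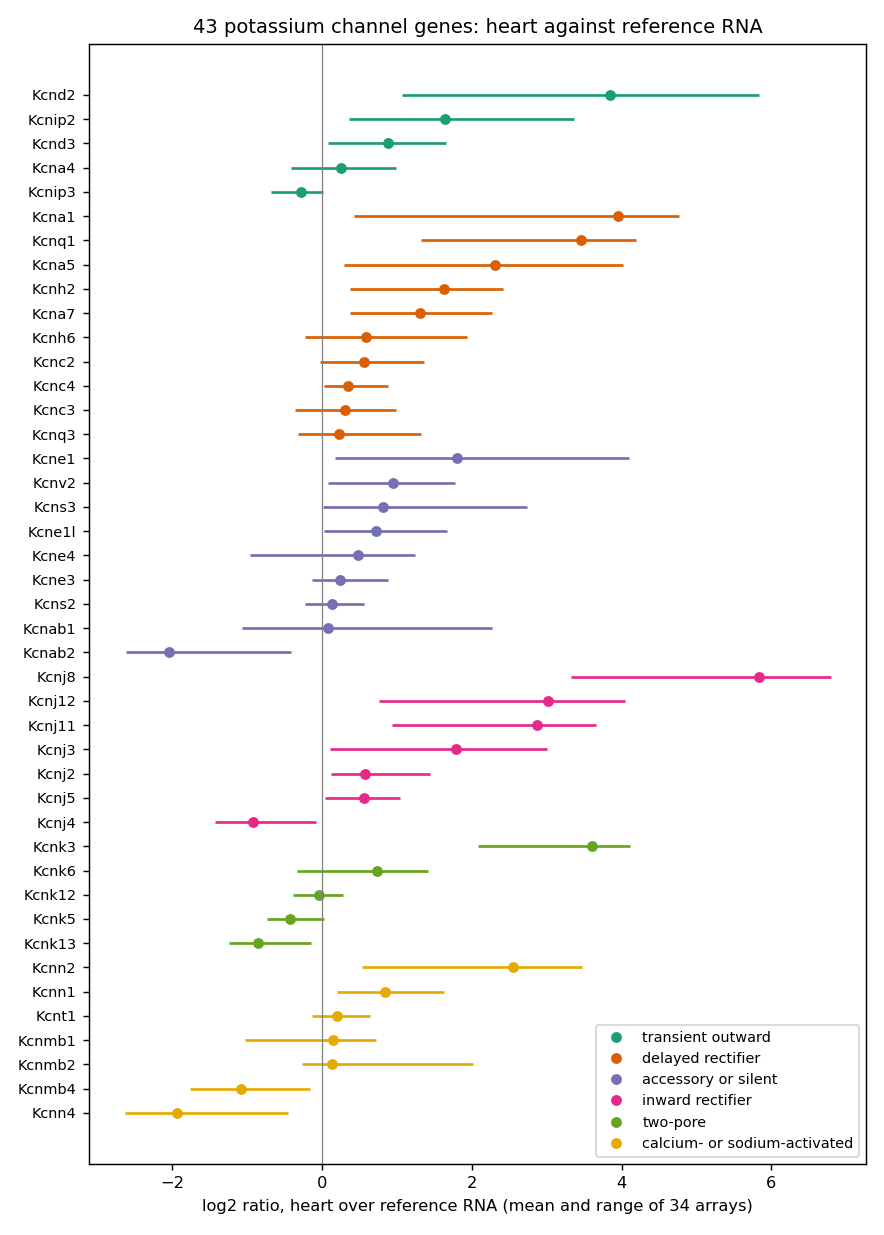
Log2 ratio of heart over reference RNA for 43 of the 44 genes, by role; points are means and lines the range of 34 arrays. Delayed and inward rectifiers lie mostly right of 0, while Kcnab2, Kcnn4 and Kcnmb4 lie left of -1.

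All 11 delayed rectifier members were brighter in heart than in the reference, with a median ratio of 1.31. Kcna1 (Kv1.1) had a ratio of 3.95 and Kcnq1 (Kv7.1, the pore of the slow delayed rectifier) one of 3.46. Among 7 inward rectifiers 6 were above 0. Kcnj8, the Kir6.1 pore of ATP-sensitive channels best known from vessels, averaged 5.83, Kcnj12 (Kir2.2) 3.01 and Kcnj11 (Kir6.2, the pore of ATP-sensitive channels in heart muscle) 2.86, whereas Kcnj4 (Kir2.3) averaged -0.92.

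Of 5 transient outward members 4 were above 0, among them Kcnd2 (3.85) and Kcnip2 (1.64), and Kcnip3 was below it (-0.28). Kcnk3 (TASK-1, a two-pore background channel) averaged 3.60, and 2 of the 5 two-pore members were above 0. Kcnn2 (SK2) averaged 2.55 among the calcium- or sodium-activated genes, while Kcnn4 (the intermediate-conductance channel of blood cells and vessels) averaged -1.94. Of the 9 accessory or silent subunits 8 were above 0, and Kcnab2 (a beta subunit) was at -2.04.

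With exposure over the 3 days together, 1 of the 44 members passed the test: Kcnk6, which encodes the two-pore channel subunit TWIK-2, was higher in exposed hearts. Kcnk6 on the carbon black arrays had log2 ratios of 0.91, 0.99, 0.71, 1.08, 0.76 and 0.04 at day 1. The 5 exposed hearts of day 3 had 1.04, 0.86, 1.41, 1.31 and 1.05. Those of day 28 had 1.32, 1.13, 1.24, 0.75 and 1.0985. On the control arrays Kcnk6 had 0.92, 0.49, -0.28, 0.32, -0.34 and 0.78 at day 1. Control hearts of day 3 had 0.27, 1.09, 0.80, 0.23, 0.65 and -0.13, and those of day 28 had 0.58, 0.76, 1.00, 0.10, 0.65 and 1.30. The groups overlapped at each day, and the lowest carbon black value, 0.04, was again on day 1 replicate 6.

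Kcnk6 averaged 0.98 ± 0.33 in carbon black hearts (SD, n = 16) and 0.51 ± 0.47 in control hearts (SD, n = 18). The mean of the 3 day effects was 0.49 ± 0.13 (SE; limma, Benjamini-Hochberg adjusted p = 0.0473, unadjusted p = 0.000798), a 1.40-fold difference with a 95% interval of 1.16 to 1.68, and 15 of 16 exposed arrays lay above the control mean of their day. Over all genes, 387 of 19798 passed (1.95%), of which 264 were higher (1.33%). One member of 44 is a share close to that background.

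By day, Kcnk6 was 0.43 ± 0.22 higher at day 1 (adjusted p = 0.695), 0.65 ± 0.23 at day 3 (adjusted p = 0.345) and 0.38 ± 0.23 at day 28 (adjusted p = 0.9999), none of which passed alone in limma. Without carbon black day 1 replicate 6, the difference over the 3 days was 0.53 (adjusted p = 0.0257) and that at day 1 was 0.58 (adjusted p = 0.555). In controls Kcnk6 was 0.42 ± 0.22 higher at day 28 than at day 1 (unadjusted p = 0.0667), close in size to the exposure effects, and this did not pass.

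**Figure D2:**
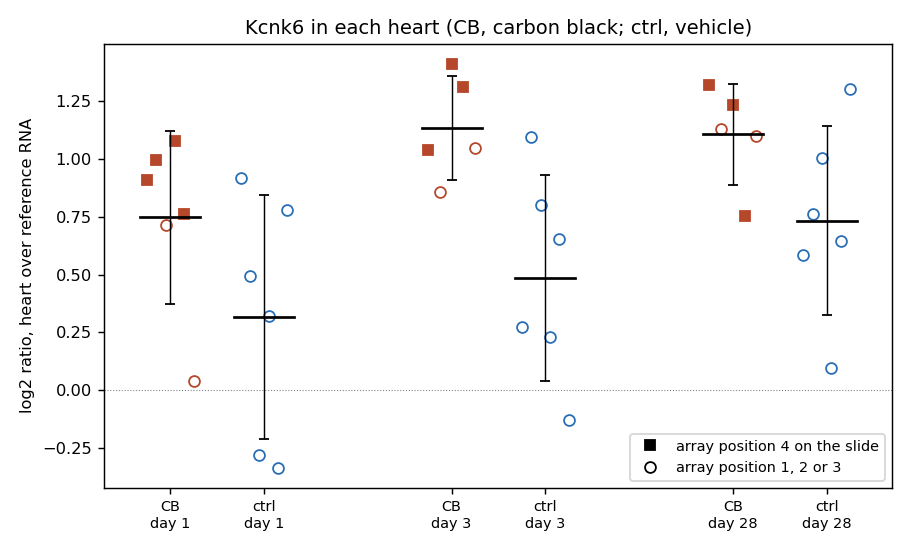
Log2 ratio of Kcnk6 (heart over reference RNA) on each array, carbon black (CB) left of control at day 1, 3 and 28; bars are means with SD, filled squares are arrays at position 4 of their slide. All 10 position-4 arrays are carbon black and have a mean of 1.08, and carbon black day 1 replicate 6 lies at 0.04.

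The position of an array on its slide moved with this result. All 10 arrays at position 4 held carbon black hearts, and 12 of 18 control arrays were at position 1. Within position 1, Kcnk6 averaged 0.37 in 2 carbon black hearts and 0.33 in 12 control hearts. Within position 2 it averaged 0.95 in 2 carbon black and 1.02 in 3 control hearts, and within position 3 it averaged 1.11 in 2 carbon black and 0.73 in 3 control hearts. The within-position differences were thus 0.04, -0.06 and 0.39, and with position as a block the difference was 0.15 (limma, adjusted p = 0.888). On 10 slides that held an exposed and a control heart of the same day, the exposed heart was higher on 9, with a median difference of 0.63, but in each of these pairs the exposed array was at position 4 and the control array at position 1, so exposure and position cannot be told apart in them. Within the 7 scan days the differences ran from 0.08 to 1.23, and all 7 were above 0.

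The heart muscle score averaged 0.07 ± 0.39 on carbon black arrays (range -0.90 to 0.91, n = 16) and -0.28 ± 0.43 on control arrays (range -1.08 to 0.39, n = 18). The macrophage score, for cells that are known to use TWIK-2, had 6 of 7 markers measured and averaged -0.16 ± 0.52 on carbon black arrays (range -1.61 to 0.40) and -0.02 ± 0.29 on control arrays (range -0.61 to 0.43). The liver score (6 of 9 markers) ran from -0.85 to 2.43 on carbon black arrays and from -0.60 to 4.06 on control arrays. Without the 3 control day 3 arrays of highest liver score, the Kcnk6 difference was 0.41 (adjusted p = 0.167). This omission fell on the control arm only. Carbon black day 3 replicate 3 (liver score 2.43) was kept, while control day 3 replicate 4 (2.38) was left out. On all 5 atrial-low arrays Kcnk6 lay below 0.91, its median on the other 29, and without these 5 the difference was 0.55 (adjusted p = 0.0289). The part of the muscle, macrophage and liver scores in the Kcnk6 result was not tested beyond this.

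The call for Kcnk6 was lost when any 1 of 24 arrays was left out, with adjusted p-values up to 0.0828 and differences between 0.44 and 0.53 over all 34 omissions. It was kept without carbon black day 1 replicates 3 or 6, carbon black day 28 replicate 4, control day 1 replicates 1, 2 or 6, control day 3 replicates 2 or 3, or control day 28 replicates 2 or 6.

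The other 43 members did not pass over the 3 days together. The median change of the 44 members was 0.04, with 27 above 0 (61.4%), against a median of 0.00 and 50.4% over all genes. With median centring in place of loess the members' median was 0.09 against 0.19 over all genes, so relative to all genes its sign turned. At day 1 the members' median was -0.01 (20 above 0), at day 3 it was 0.16 (28 above 0) and at day 28 it was 0.04 (25 above 0), against 0.00, 0.02 and 0.01 over all genes. The day 3 median was -0.00198 with array position as a block and -0.0044 without the 3 control arrays of highest liver score. Without carbon black day 1 replicate 6 the day 1 median was 0.07 and that over the 3 days 0.08. At the single days 0 of 44 members and 0 of 19798 genes passed (0%). At an unadjusted p under 0.05 the members counted 0 at day 1, 3 at day 3 (6.82%) and 1 at day 28 (2.27%), against 7.2%, 11.1% and 2.99% of all genes. Over the 3 days together 2 of the 44 members (4.55%) were under it, against 18.3% of all genes. Day effects had the same sign throughout for 14 members, 8 above and 6 below 0, and mixed signs for 30.

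**Figure D3:**
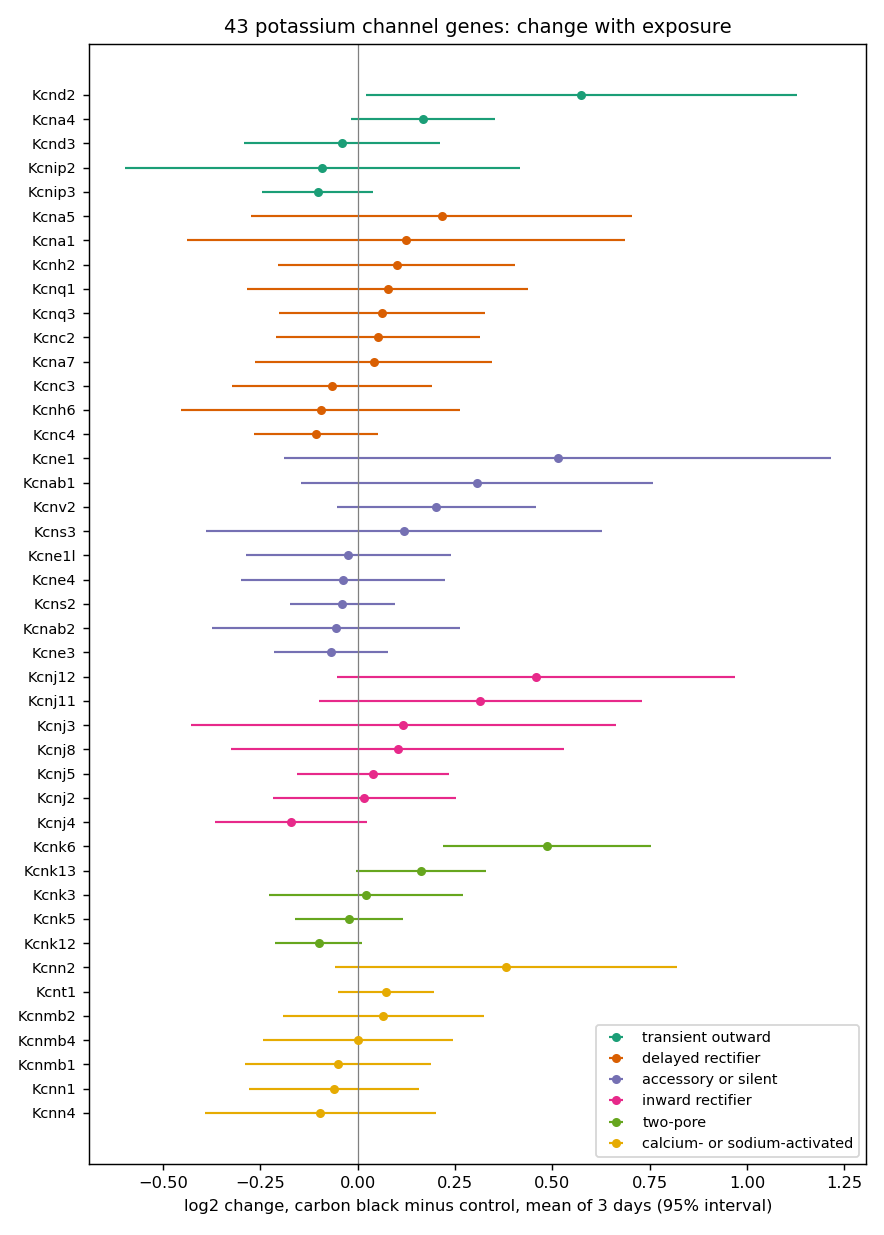
Log2 change with exposure (carbon black minus control, mean of the 3 days) for 43 of the 44 genes by role, with limma's 95% interval. Most intervals cross 0; that of Kcnk6 runs from 0.22 to 0.75 and that of Kcnd2 from 0.02 to 1.13, though Kcnd2 did not pass adjustment.

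Among the transient outward genes, none of 5 passed and 2 were above 0. Kcnd2 had 4.57, 3.45, 3.47, 3.81, 3.92 and 1.06 on the carbon black arrays of day 1, against 3.25, 3.71, 3.85, 2.91, 3.00 and 4.36 on the controls. At day 3 it had 4.81, 5.00, 4.83, 3.71 and 4.39 on carbon black arrays, against 3.19, 3.65, 5.12, 3.53, 2.53 and 2.47 on controls. At day 28 it had 3.56, 4.32, 5.83, 4.46 and 4.78 on carbon black arrays, against 4.00, 4.61, 4.47, 3.65, 3.02 and 3.46 on controls. Day 3 carbon black values lay high, but control replicate 3 was higher than each of them. Control day 3 replicates 5 and 6 (2.53 and 2.47) had liver scores of 4.06 and 3.02 and heart muscle scores of -1.05 and -1.08. Carbon black day 3 replicates 1 and 3 (4.81 and 4.83) had liver scores of 2.02 and 2.43 and heart muscle scores of 0.25 and 0.10. The part of these scores in the Kcnd2 values was not tested.

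The Kcnd2 change was -0.13 ± 0.46 at day 1, 1.13 ± 0.48 at day 3 (limma, adjusted p = 0.376) and 0.72 ± 0.48 at day 28. Over the 3 days it was 0.57 ± 0.27 (adjusted p = 0.252), and 0.73 (adjusted p = 0.0609) without carbon black day 1 replicate 6, when the day 1 change turned to 0.33. Its other probe gave 0.36 ± 0.20 over the 3 days, and both probes correlated at r = 0.730 over the 34 arrays. Without background correction of the signals the Kcnd2 change was 0.97 (adjusted p = 0.0294), and in the authors' deposited table of values it was 0.96 (adjusted p = 0.0315), so its call depended on that step.

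Kcna4 (Kv1.4, the pore of the slow transient outward current) was at 0.17 ± 0.09 (adjusted p = 0.328), Kcnd3 (Kv4.3) at -0.04 ± 0.12 and Kcnip2 at -0.09 ± 0.25, or -0.02 without carbon black day 1 replicate 6. None of these estimates passed. Kcnip3, a calcium-binding relative of KChIP2, was at -0.10 ± 0.07.

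Of the 11 delayed rectifiers none passed and 8 were above 0, with changes over the 3 days from -0.11 to 0.22. Kcna5 (Kv1.5) had 1.58, 1.75, 2.47, 1.86, 2.07 and 0.29 on carbon black day 1 arrays, against 1.75, 2.78, 2.19, 1.56, 1.37 and 2.18 on controls. Its change over the 3 days was 0.22 ± 0.24, with -0.30 ± 0.40 at day 1, 0.33 ± 0.42 at day 3 and 0.61 ± 0.42 at day 28. Without carbon black day 1 replicate 6 its day 1 change was -0.03. Kcnq1 was at 0.08 ± 0.18, Kcnh2 (the hERG channel of the rapid delayed rectifier) at 0.10 ± 0.15, Kcna7 (Kv1.7) at 0.04 ± 0.15 and Kcna1 at 0.12 ± 0.28.

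**Figure D4:**
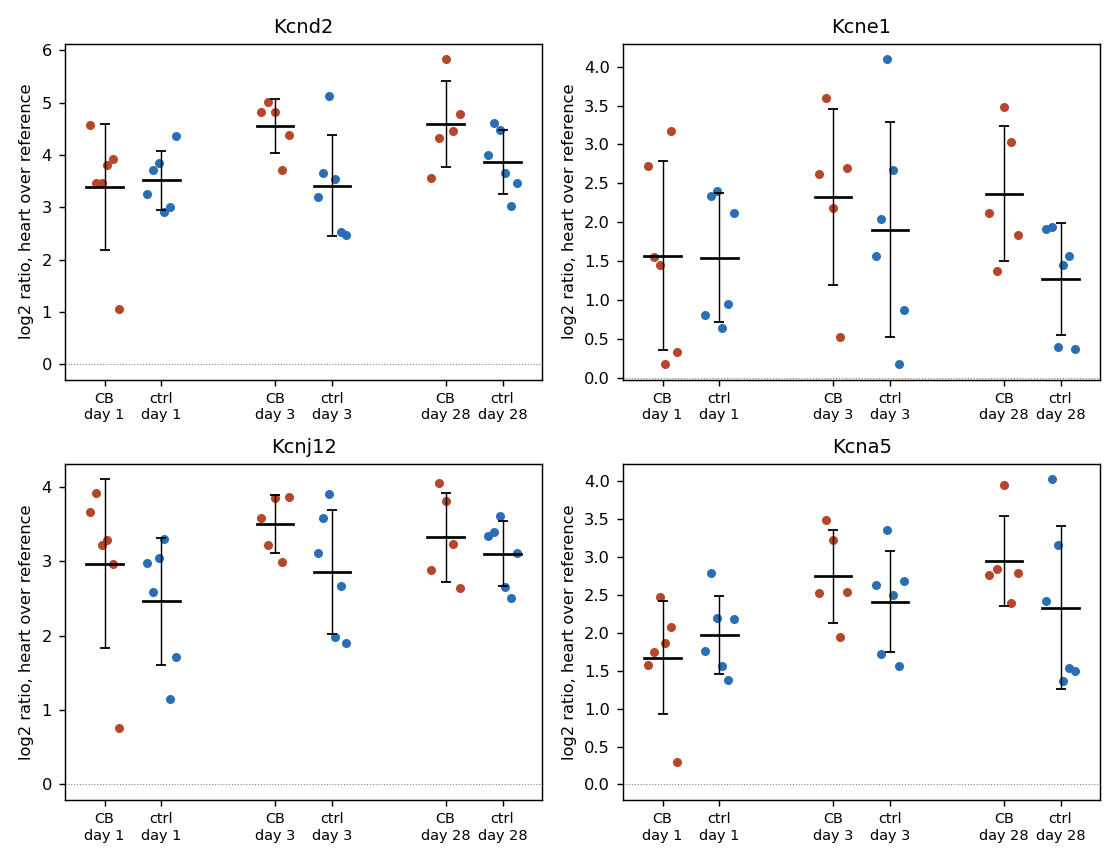
Log2 ratio on each array of 4 of the 5 genes with the largest SD over arrays, Kcnd2, Kcne1, Kcnj12 and Kcna5, carbon black (CB) left of control (ctrl) at each day; bars are means with SD. Groups overlap in every panel, and the lowest day 1 value of Kcnd2, Kcnj12 and Kcna5 is carbon black replicate 6.

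Of the 9 accessory or silent subunits none passed and 4 were above 0. Kcne1 (minK, the partner of Kcnq1) varied most of all members, with an SD of 1.05 over the 34 arrays. At day 28 it had 2.11, 1.37, 3.48, 3.03 and 1.83 on carbon black arrays, against 1.91, 1.93, 0.39, 1.46, 1.56 and 0.37 on controls. That difference was 1.09 ± 0.61 (unadjusted p = 0.0805) and the one over the 3 days 0.51 ± 0.34 (adjusted p = 0.456), neither past the threshold.

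Kcnab1 (a beta subunit of Kv1 channels) had the smallest unadjusted p of the members at day 28. It had 0.34, 1.19, -1.07, 0.32 and 2.27 on carbon black arrays, against -0.22, -0.63, -0.03, -0.02, 0.07 and -0.44 on controls. The carbon black values spanned the whole control range, and the difference was 0.82 ± 0.39 (unadjusted p = 0.0439, which did not pass adjustment). Kcnv2, a silent subunit of voltage-gated channels, was at 0.20 ± 0.13 (0.44 with adjusted p = 0.0372 without background correction, and 0.40 with adjusted p = 0.0417 in the authors' deposited table), Kcne3 at -0.07 ± 0.07, Kcne4 at -0.04 ± 0.13 and Kcnab2 at -0.06 ± 0.16. Kcne1l, an accessory subunit of the same family as minK, was at -0.36 ± 0.22 at day 1 and 0.27 ± 0.23 at day 3.

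Of the 7 inward rectifiers none passed and 6 were above 0, with a median change of 0.10. Kcnj12 had 3.66, 3.91, 3.22, 3.28, 2.96 and 0.76 on carbon black day 1 arrays, against 2.97, 2.58, 3.04, 3.30, 1.15 and 1.71 on controls. At day 3 it had 3.58, 3.21, 3.85, 2.99 and 3.86 on carbon black arrays, against 3.11, 3.57, 3.91, 1.97, 2.66 and 1.90 on controls. At day 28 it had 2.88, 4.05, 3.80, 3.23 and 2.64 on carbon black arrays, against 3.34, 3.38, 3.60, 2.65, 2.51 and 3.11 on controls. Apart from replicate 6 at day 1, the lowest carbon black array had 2.64, while the lowest control array had 1.15, and the arms overlapped up to 3.91.

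The Kcnj12 change over the 3 days was 0.46 ± 0.25 (adjusted p = 0.337), and 0.60 (adjusted p = 0.0878) without carbon black day 1 replicate 6. Without background correction it was 0.77 (adjusted p = 0.0359), and fitted to the authors' deposited values it was 0.76 (adjusted p = 0.0384). Kcnj11 was at 0.31 ± 0.20, and at 0.57 (adjusted p = 0.0454) without background correction. The estimates were 0.10 ± 0.21 for Kcnj8, 0.12 ± 0.27 for Kcnj3, 0.04 ± 0.10 for Kcnj5 (GIRK4, which pairs with GIRK1) and 0.02 ± 0.11 for Kcnj2 (Kir2.1, the main pore of the resting inward rectifier). Kcnj4 alone of the group was below 0, at -0.17 ± 0.10 (adjusted p = 0.350). With background correction none of these estimates passed.

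Besides Kcnk6, the two-pore members Kcnk13 (a THIK channel) and Kcnk3 were at 0.16 ± 0.08 (adjusted p = 0.289) and 0.02 ± 0.12. Kcnk12, the other THIK gene, was at -0.10 ± 0.05 over the 3 days and -0.21 ± 0.10 at day 3 (adjusted p = 0.404). It was not well above background on any carbon black day 28 array and was on 3 control day 28 arrays, so its value in the exposed group is a bound. Kcnk5 was not well above background on any control day 1 array, Kcnmb1 and Kcns2 on none of control day 28, and Kcns2 on none of carbon black day 28, so their values there are bounds.

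Of the 7 calcium- or sodium-activated members none passed and 4 were above 0. Kcnn2 was at 0.38 ± 0.21 (adjusted p = 0.354), and its other probe gave 0.08 ± 0.09, with r = 0.764 between the probes. Without background correction the first probe gave 0.79 (adjusted p = 0.0167), and fitted to the authors' deposited values it was 0.75 (adjusted p = 0.0176). Kcnn1 (SK1) was at -0.06 ± 0.11, Kcnn4 at -0.10 ± 0.15 and Kcnmb1, the smooth muscle beta subunit of BK channels, at -0.05 ± 0.12. Kcnt1, a sodium-activated channel, was at 0.19 ± 0.10 at day 1. Kcnmb2, another BK beta subunit, was at 0.40 ± 0.22 at day 28, where replicate 1 alone had 2.02 and the other carbon black arrays lay between -0.13 and 0.19.

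The difference of the exposure effect between days was tested as such and passed for 0 of 44 members and 0 of 19798 genes (0%), with 0 members and 1% of genes at an unadjusted p under 0.05. The smallest unadjusted p among members was 0.103, for Kcnk12. Between control groups, day 3 over day 1, day 28 over day 1 and day 28 over day 3 likewise gave 0 of 44 members and 0 of 19798 genes (0% each). Unadjusted p-values under 0.05 numbered 0 among members in all 3, against 2.05%, 1.18% and 4.43% of genes. The groups of no member were free of overlap at any day, where 0.369%, 0.894% and 0.389% of all genes had groups without overlap at day 1, day 3 and day 28.

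Genes that assemble with, anchor or regulate these channels were described from a list of 31, of which 28 were tested and 0 passed in any of the 8 comparisons. Over the 3 days, 14 of the 28 were above 0 and the median change was 0.02. The regulatory and catalytic subunits of protein kinase A, Prkar1a and Prkaca, were at 0.25 ± 0.12 and 0.16 ± 0.08 (limma, adjusted p = 0.242 and 0.257). Klf15, a transcription factor known to control Kcnip2 rhythm in the mouse heart, was at 0.39 ± 0.22. Rgs4, which shortens signalling by G proteins, was at -0.77 ± 0.20 at day 1 (adjusted p = 0.423).

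One pattern among the members lay on the 5 atrial-low arrays. Kcnj3 had 0.10 on carbon black day 1 replicate 6 and 0.56 on carbon black day 3 replicate 2. It had 0.45 on control day 1 replicate 2, 0.54 on control day 3 replicate 4 and 0.33 on control day 28 replicate 2. These are its 5 lowest values, and the other 29 arrays lay between 1.03 and 3.00. Kcnj3 was the 1 member of 44 whose 5 lowest arrays were the 5 atrial-low ones, and both exposure arms held such arrays. The share of all 19798 genes that split this way is not given here. The count is therefore not a result particular to potassium channel genes. Among these 5 arrays, carbon black day 1 replicate 6 was low on other marker scores as well. On it Kcnk3, Kcnj8 and Kcnq1 were also at their lowest of 34, while Kcnab2 and Kcnn4, dimmer in heart than in the reference, were at their highest. The low Kcnj3 value of that array is thus not particular to Kcnj3 or to atrial genes.

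Kcnj5 (GIRK4) had 0.04 and 0.29 on the 2 atrial-low carbon black arrays, and 0.08, 0.26 and 0.42 on the 3 atrial-low control ones, given in the order above. These ranked 1 and 6, and 2, 5 and 11, from the lowest of 34. Kcna1 had 0.43 and 4.06 on the carbon black arrays, and 3.10, 3.10 and 2.52 on the control arrays. Its 4 lowest values of 34 thus lay on 4 of the 5 arrays, and carbon black day 3 replicate 2 ranked 15. Kcns3, a silent subunit, had values from 0.01 to 0.21 on the 5 arrays, against 0.09 to 2.73 (median 0.79) on the other 29, so the 2 sets overlapped. These values ranked 1 and 2 on the carbon black arrays, and 5, 9 and 3 on the control ones.

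Kcnip2 went the other way on 4 of these arrays. It had 2.51 on carbon black day 3 replicate 2, 2.76 on control day 1 replicate 2, 3.36 on control day 3 replicate 4 and 2.51 on control day 28 replicate 2, ranks 31, 32, 34 and 30. On carbon black day 1 replicate 6 it was at its lowest, 0.36. Kcna5 was high on the same control arrays of day 1 and day 28 (2.78 and 4.02, ranks 26 and 34) and lowest on carbon black day 1 replicate 6 (0.29).

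**Figure D5:**
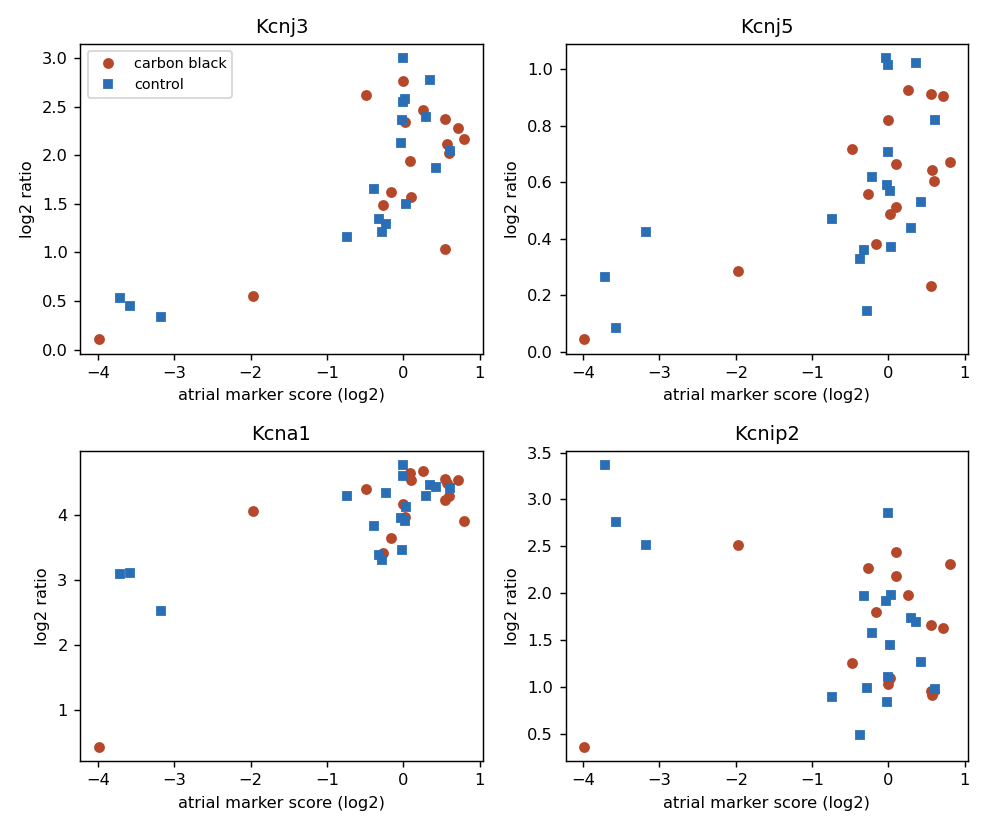
Log2 ratio of Kcnj3, Kcnj5, Kcna1 and Kcnip2 against the atrial marker score (log2) on 34 arrays, circles for carbon black and squares for control. The 5 arrays left of -1.5 have the lowest Kcnj3 values, and 4 of them lie among the 5 highest Kcnip2 values.

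Over the 29 arrays outside that cluster, the 44 members were each correlated with the atrial score, and p-values were adjusted over the 44 relations. Pearson's r passed for 4 members and Spearman's rho for 1, with 13 at an unadjusted Pearson p under 0.05. The share of all genes at these thresholds is not given here, so these counts are not a result particular to potassium channel genes. Kcnh2 had r = 0.68 (two-sided permutation p = 8e-05, adjusted p = 0.00352) and rho = 0.66 (permutation p = 0.00016, adjusted p = 0.00704). Its r was 0.61 without the 2 arrays farthest from the median score and 0.63 after centring within slides.

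Kcnq1 had r = 0.57 (permutation p = 0.00106, adjusted p = 0.0233) and rho = 0.47 (permutation p = 0.0114, adjusted p = 0.0864), with 0.36 without the 2 farthest arrays and 0.66 within slides. Kcnj11 had r = 0.52 (permutation p = 0.00309, adjusted p = 0.0453) and rho = 0.47 (permutation p = 0.0116, adjusted p = 0.0864), with 0.38 and 0.40. Kcnip3 had r = -0.52 (permutation p = 0.00443, adjusted p = 0.0487) and rho = -0.46 (permutation p = 0.0133, adjusted p = 0.0864), with -0.51 and -0.34. All points share the scale of ratios against 1 reference RNA, and the markers and members came from the same arrays.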

How the data were processed

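RNA of 34 hearts was measured on two-colour Agilent 4x44K mouse arrays. Per the labels' protocols, 200 ng of RNA per mouse was amplified and labelled with Cy5. The deposited files give intensity per spot, in linear units, from Agilent Feature Extraction 10.1.1.1 (array build mm8), per the file headers. The deposited value table is on a log2 scale; its columns correlate at 0.995 to 0.998 with loess-normalised log2 ratios without background correction, have medians from -0.055 to -0.034, and run in the same direction.

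Median signals were corrected with normexp (offset 50) and loess-normalised in limma 3.58.1 (R 4.3.3); control and outlier spots had weight 0. Mean signals named in the plan were not used. The 6 group means were fitted with lmFit and eBayes over 19798 genes (28 residual degrees of freedom), 1 probe per gene (the brightest in the heart channel on average), with Benjamini-Hochberg adjustment over all genes and a threshold of 0.05. A probe passed when a share of 0.5 or more of the arrays in any group had it well above background. Genes missing on over 3 arrays were dropped, and no member lacked a value. Symbols came from RefSeq accessions (GRCm38.p6, names only). Correlations used 1e+05 permutations (scipy 1.17.1). Methods were tested on simulated data. The results of 1 member are not reported here. Members, marker and partner lists were chosen with earlier results of these data known. Named were classical heart potassium channel genes, members that passed, the 4 of smallest unadjusted p in each comparison, the 5 of largest SD, and those at background in a group. Kcnip3, Kcnj4, Kcnmb4 and Kcns3 were named besides these. Each array is a mouse with its own sample number; the number of arrays limits precision.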

Additional observations from a re-analysis of the deposited data

Results flagged for a closer look

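For 34 of the members, single values that lay far from the rest of their group were sought in 204 groups of 5 or 6 arrays. Chance marks about 1 in 20 groups where these are independent and unselected, and 24 values of 21 members were marked. The 34 were the named members, some of them named for a large SD or a small p in these data. Values on 1 array are also not independent, so that rate is only a rough guide. Of these, 16 were on carbon black day 1 replicate 6. There Kcna1 had 0.43, Kcnd2 1.06, Kcnd3 0.0834, Kcnh2 0.38, Kcnj11 0.94, Kcnj12 0.76 and Kcnj8 3.32, each the lowest of its group. Kcnk3 had 2.08, Kcnk6 0.0367, Kcnn2 0.54, Kcnq1 1.32 and Kcnv2 0.0803 there, again the lowest. Kcnab2 had -0.41, Kcnk13 -0.15, Kcnk5 -0.0106 and Kcnn4 -0.46, each the highest. Of these 16 members, those brighter in heart than in the reference lay low on that array and those dimmer lay high.

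The other 8 values were spread over 7 arrays. Carbon black day 3 replicate 5 had a low Kcnt1 (-0.13), and carbon black day 3 replicate 3 had a high Kcne1l (1.53). Carbon black day 1 replicate 5 had a high Kcnj2 (1.44). Carbon black day 28 replicate 2 had a low Kcnk12 (-0.35), and replicate 1 of that group a high Kcnmb2 (2.02). Control day 1 replicate 5 had low Kcnj11 (1.28) and Kcnn2 (1.69), and control day 1 replicate 6 had a high Kcnt1 (0.41).

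For Kcne1l, all 6 carbon black arrays of day 1 lay below their control mean (mean change -0.36) and all 5 of day 3 lay above theirs (mean change 0.27). The difference of the effect between days did not pass (limma, adjusted p = 0.9999, unadjusted p = 0.144).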

How the results depend on the processing

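With 1 member called over the 3 days together, the count was 6 without background correction (Kcnk6, Kcnd2, Kcnj11, Kcnj12, Kcnn2 and Kcnv2) and 5 with the authors' deposited values (the same without Kcnj11). Over all genes these settings called 1036 higher and 450 lower, and 819 higher and 672 lower. It was 0 with Agilent's processed signals, without the filter on dim probes, and with the mean of all probes of a gene. It was also 0 with probes well above background on all arrays (16 members, not Kcnk6), and with slide, scan day or position as a fixed block. Without the 3 control day 3 arrays of highest liver score (the high-liver arrays, none of them carbon black) the count was 0 as well. Processed signals and the 3 fixed blocks also called 0 genes of any kind, and omission of the high-liver arrays left 1. The member count stayed at 1 with median centring, slide as a random block, and without the atrial-low arrays. Over all genes, slide as a random block called 299 higher and 131 lower. Omission of the atrial-low arrays called 683 genes higher and 354 lower. Without the filter 89 genes were higher and 59 lower, and with the mean of probes 89 and 43. With probes well above background on all arrays 261 genes were higher and 143 lower. Leaving out 1 array gave 0 to 1 members called. The Kcnk6 change was 0.11 with processed signals (adjusted p = 0.599), 0.65 with slide (0.126), 0.47 with scan day (0.0858) and 0.15 with position (0.888). It was 0.49 both without the filter (0.0693) and with the mean of probes (0.0556). Median centring moved the median of all genes to 0.19, which leaves 0.39 for Kcnk6 relative to it, and gave 1364 genes higher and 0 lower, against 264 and 123.

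The members' median at day 3, 0.16, was -0.00198 with position as a block and -0.0044 without the high-liver arrays. Leaving out 1 array gave 0.09 to 0.21 at day 3, -0.07 to 0.07 at day 1, 0.00187 to 0.08 at day 28 and 0.01 to 0.08 over the 3 days. In the controls it gave -0.06 to 0.03 for day 3 over day 1, -0.05 to 0.01 for day 28 over day 1 and -0.05 to 0.02 for day 28 over day 3. In the other 7 comparisons 0 members were called at every setting. The causes were not tested. By replicate number, no paired analysis was possible because the labels give no replicate numbers shared between groups; slide served as a block instead.

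A member near background has compressed ratios, and 28 members were not well above background in the heart channel on all arrays.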
